A study of Mus musculus with 13 samples.

Results

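Complement is a cascade of proteins that marks targets for uptake, calls in immune cells and can pierce membranes, and macrophages are among the cells that make and sense it. The genes described here are 9 of the 48587 gene symbols in a bulk RNA-sequencing count table, chosen by symbol: the C1q chains C1qa, C1qb and C1qc, the components C3 and C4b, properdin (Cfp), and the receptors C3ar1, C5ar1 and Itgam. All 9 were in the table and all 9 passed the filter on low counts. They were followed over 13 libraries of C57BL/6J mice: macrophages of the sciatic nerve, a peripheral nerve (4 libraries), macrophages of the optic nerve, which belongs to the central nervous system (4 libraries), and microglia of the brain (5 libraries). The labels used here give strain and tissue but no treatment or age for these libraries, and do not say whether replicates came from separate animals, so p-values measure only the spread between these libraries. The brain columns carry a prefix that the labels do not explain and were assigned to brain as the group of 5. Brain replicates 1 to 5 are numbered by these columns, and the numbers are not tied to labelled replicates.

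C1q starts the classical pathway. It is built from the A, B and C chains, each encoded by a gene of its own, and in the brain it is known as a product of microglia that can tag synapses. C1q activates the proteases C1r and C1s, which cleave C4 and C2 to form an enzyme that splits C3. The alternative pathway amplifies C3 cleavage with factors B and D, and properdin stabilises its enzyme. C3 fragments are read by complement receptor 3, the integrin of Itgam (CD11b) and Itgb2 (CD18), while the small fragments C3a and C5a act on the receptors C3ar1 and C5ar1.

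The groups could be told apart by marker genes. The microglial marker P2ry12 had 141 ± 12.6 counts per 1000000 (CPM, scaled for library composition) in sciatic nerve (SD, n = 4), 2457 ± 103 CPM in optic nerve (n = 4) and 8377 ± 2772 CPM in brain (n = 5), and Tmem119 had 6.85 ± 1.85, 1731 ± 314 and 4732 ± 918 CPM in the same order. A sum of 6 markers of border macrophages, among them Mrc1, Cd163 and Lyve1, ran from 12415 to 15022, from 285 to 649 and from 8.52 to 26.3 CPM in the same order. Brain replicates 1 and 2 stood apart from the other brain libraries, with pan-macrophage marker sums of 8632 and 11466 CPM against 17700 to 18599 CPM, and brain replicate 1 had 3.79% mitochondrial counts against 0.410% to 0.868%. Library totals ran from 10.9 to 23.5 M counts. In bulk RNA, fewer cells of a type and less RNA per cell cannot be told apart, for every gene below.

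Promoter sequences of 7 of the 9 genes were found in the RefSeq table of build GRCm38.p6, C1qa and C4b being the others. The results turn on the neighbours C1qb and C1qc, whose ratio differed between tissues, and on the peptide receptors C3ar1 and C5ar1. Cfp had the widest range of the 9 genes. The promoters of these 5 genes are printed. Each runs 5′ to 3′ from 250 bases before to 50 bases after the gene start and lies on the minus strand, at chr4:136886151-136886450 for C1qb, chr4:136892865-136893164 for C1qc, chrX:20931506-20931805 for Cfp, chr6:122856108-122856407 for C3ar1 and chr7:16259289-16259588 for C5ar1. Capitals mark matches, on either strand, to GAGGAA (core of PU.1 sites), TGANTCA (AP-1), GAAANNGAA (IRF) or TTGCNNAA (C/EBP).
C1qb: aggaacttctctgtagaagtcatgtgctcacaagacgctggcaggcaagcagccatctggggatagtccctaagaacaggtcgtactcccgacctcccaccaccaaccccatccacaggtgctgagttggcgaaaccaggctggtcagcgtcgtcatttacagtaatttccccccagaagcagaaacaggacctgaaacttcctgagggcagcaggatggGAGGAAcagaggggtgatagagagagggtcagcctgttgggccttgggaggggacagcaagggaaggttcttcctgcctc
C1qc: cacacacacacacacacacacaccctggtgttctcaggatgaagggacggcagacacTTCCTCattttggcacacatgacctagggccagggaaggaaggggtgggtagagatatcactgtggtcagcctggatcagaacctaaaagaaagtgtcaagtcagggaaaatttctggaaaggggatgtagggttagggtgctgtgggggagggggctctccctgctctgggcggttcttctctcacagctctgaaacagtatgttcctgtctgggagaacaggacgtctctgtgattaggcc
Cfp: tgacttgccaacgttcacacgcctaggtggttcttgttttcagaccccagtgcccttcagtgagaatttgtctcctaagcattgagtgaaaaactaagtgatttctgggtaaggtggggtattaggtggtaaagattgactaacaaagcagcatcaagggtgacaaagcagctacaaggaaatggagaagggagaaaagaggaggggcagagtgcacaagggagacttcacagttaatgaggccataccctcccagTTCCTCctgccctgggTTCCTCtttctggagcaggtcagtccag
C3ar1: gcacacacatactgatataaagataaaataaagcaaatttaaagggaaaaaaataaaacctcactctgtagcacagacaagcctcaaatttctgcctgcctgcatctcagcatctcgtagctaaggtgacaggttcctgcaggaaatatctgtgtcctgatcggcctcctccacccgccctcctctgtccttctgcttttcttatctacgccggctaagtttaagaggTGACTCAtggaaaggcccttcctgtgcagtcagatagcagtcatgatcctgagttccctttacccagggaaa
C5ar1: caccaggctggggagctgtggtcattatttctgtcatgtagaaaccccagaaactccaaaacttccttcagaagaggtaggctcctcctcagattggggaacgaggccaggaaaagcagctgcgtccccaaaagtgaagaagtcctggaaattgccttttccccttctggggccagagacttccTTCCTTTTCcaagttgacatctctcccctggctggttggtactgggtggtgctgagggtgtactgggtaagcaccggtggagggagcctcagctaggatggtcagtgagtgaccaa

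GAGGAA lay on the plus strand in C1qb, starting 30 bases before the gene start, and on the minus strand in C1qc, 193 bases before it. Cfp held 2 matches to GAGGAA on the minus strand, 7 and 23 bases after the start. C3ar1 held an AP-1 match 22 bases before its start and C5ar1 an IRF match on the minus strand 66 bases before its start. These distances are from the RefSeq starts, which can differ from those of the GENCODE M21 annotation used below. GENCODE M21 starts C5ar1 at chr7:16259540, which puts the IRF match inside the gene. It starts C1qc at chr4:136893065, which is nearer to the C1qc match. The promoters not printed held a C/EBP match (C3) and 3 matches to GAGGAA (Itgam). No 2 matches overlapped. Such matches are common: 28.28% of all 32851 promoters in the table held GAGGAA, 7.808% TGANTCA, 8.56% GAAANNGAA and 10.8% TTGCNNAA, and a match is a description of the letters, not evidence of binding.

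Across the 3 comparisons, the complement genes did not move as a block. Against brain, sciatic nerve macrophages were higher in 5 of the 9 genes (C3, C4b, Cfp, C3ar1 and C5ar1), lower in 3 (C1qa, C1qc and Itgam), and not called in C1qb. Optic nerve macrophages were higher than brain in the same 5 genes and in C1qb, with C1qa, C1qc and Itgam not called. Sciatic nerve was higher than optic nerve in Cfp and C5ar1, lower in the 3 C1q chains and Itgam, and not called in C3, C4b and C3ar1. Calls here rest on adjusted p-values under 0.05 (edgeR's quasi-likelihood F-test, Benjamini-Hochberg over 13246 genes), and the comparisons share libraries and so are not independent.

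Many genes differed between these tissues, which sets the scale for those counts. For sciatic nerve against brain, 24.1% of all tested genes were called higher and 24.3% lower. For optic nerve against brain the shares were 19.6% and 17.4%, and for sciatic against optic nerve 10.9% and 10.9%. The libraries of the compared tissues did not overlap for 8, 6 and 7 of the 9 complement genes in that order, against 41.3%, 31.8% and 29.9% of all genes. The median log2 fold change over the 9 genes was 1.92, 1.89 and -0.56, and over all genes tested it was -0.09, -0.08 and 0.00. With libraries scaled by total count alone, the median over all genes moved to -0.53, -0.33 and -0.19, and the share of calls that were higher was 31.2%, 37.0% and 35.8%, against 49.8%, 52.9% and 50.03% with composition scaling. Under that scaling, C1qa and C1qc against brain turned lower in optic nerve (-0.10 and -0.16, neither called), C1qb was called lower in sciatic nerve than in brain (-0.54) and lost its call for optic nerve against brain (0.37, adjusted p = 0.0657 in edgeR's test).

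**Figure D1:**
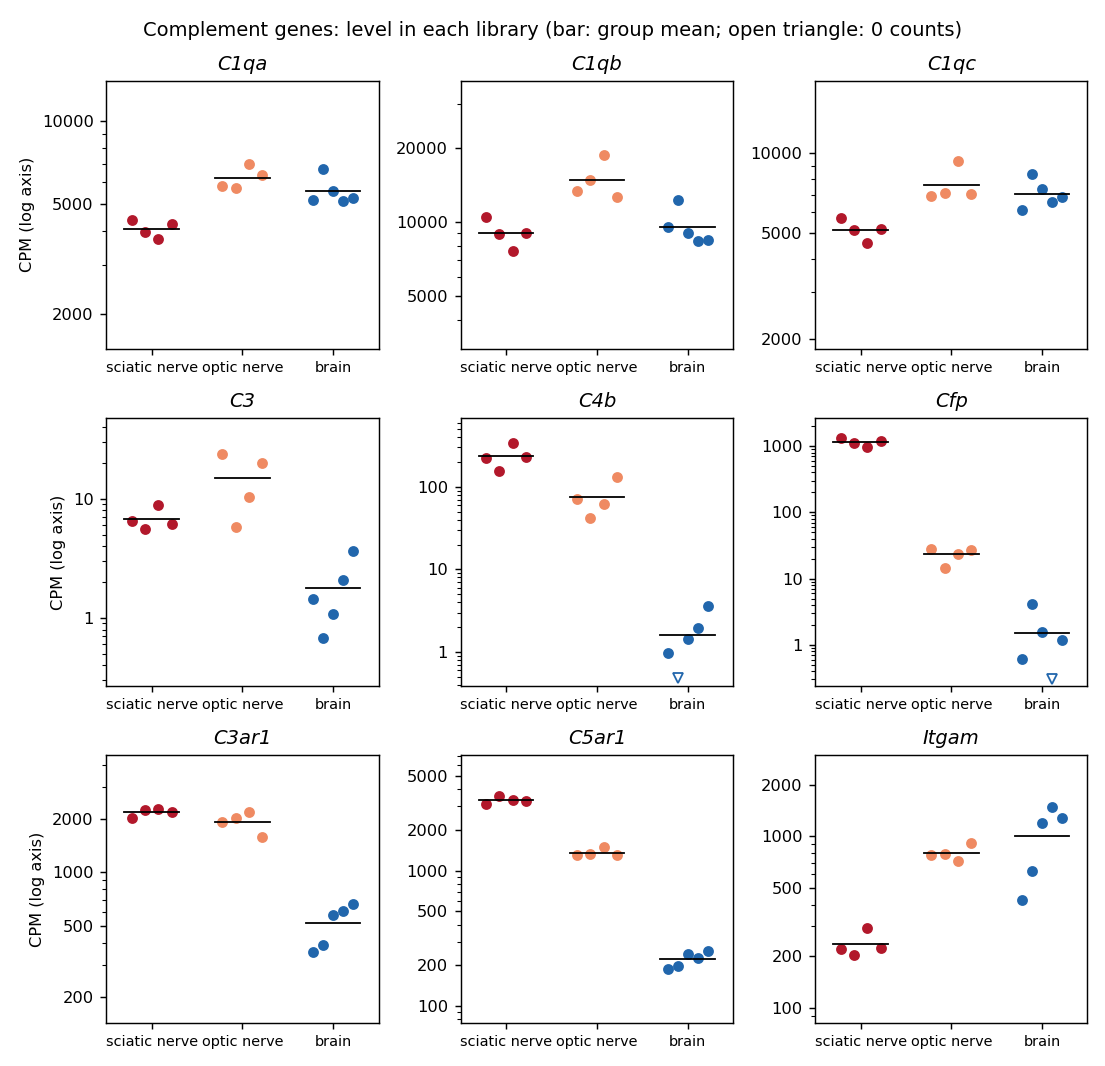
CPM of each complement gene in every library on log axes, with sciatic nerve, optic nerve and brain from left to right and a bar at the group mean. The C1q genes lie at 3747 CPM or more in every library, C4b and Cfp fall to a few CPM or 0 in brain, C5ar1 separates all 3 tissues, and Itgam is at 204 to 291 CPM in sciatic nerve.

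The C1q chains were among the most abundant transcripts of all 3 cell populations. Together they took 1.55 ± 0.127% of all counts in sciatic nerve (SD, n = 4), 2.78 ± 0.278% in optic nerve (n = 4) and 2.58 ± 0.430% in brain (n = 5). C1qb, the B chain, ranked between 10 and 15 among all genes by counts in sciatic nerve libraries, between 3 and 5 in optic nerve and between 2 and 8 in brain. The share was lower in every sciatic nerve library than in any library of the other tissues. It is of unscaled counts, and sciatic nerve and brain differed less in the composition-scaled CPM of each chain given below.

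C1qa, the A chain, had 4385, 3960.0, 3747 and 4223 CPM in sciatic nerve, 5838, 5749, 6993 and 6400.0 CPM in optic nerve and 5161, 6714, 5562, 5152 and 5249 CPM in brain. All sciatic libraries lay below every library of the other tissues, and optic nerve and brain overlapped. In edgeR's test, the log2 fold change was -0.45 (SE 0.13, adjusted p = 0.00868) for sciatic nerve against brain, 0.17 (SE 0.12, adjusted p = 0.318) for optic nerve against brain and -0.61 (SE 0.13, adjusted p = 0.0032) for sciatic against optic nerve. From high to low the order was optic nerve, brain, sciatic nerve, and optic nerve and brain did not differ beyond their spread.

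C1qc, the C chain, had 5698, 5161, 4589.6 and 5182 CPM in sciatic nerve, 6912, 7066, 9386 and 7037 CPM in optic nerve and 6098, 8391, 7343, 6577 and 6838 CPM in brain. The same order held, with sciatic nerve below every other library. Its log2 fold change in edgeR's test was -0.45 (SE 0.14, adjusted p = 0.0158) for sciatic nerve against brain and -0.56 (SE 0.15, adjusted p = 0.0126) for sciatic against optic nerve. The interval of the optic nerve against brain difference was -0.19 to 0.41 on the log2 scale. Without sciatic replicate 3 the call against brain was lost at -0.40 (adjusted p = 0.0513 in edgeR's test).

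C1qb followed another order. It had 10444, 8899, 7648 and 9055 CPM in sciatic nerve, 13409, 14795, 18666 and 12578 CPM in optic nerve and 9524, 12308, 9054, 8374 and 8459 CPM in brain. Every optic nerve library lay above every library of the other tissues, and sciatic nerve and brain overlapped. It was higher in optic nerve than in brain by 0.64 on the log2 scale (SE 0.16, adjusted p = 0.00606 in edgeR's test) and lower in sciatic than in optic nerve (-0.72, SE 0.17, adjusted p = 0.00588 in edgeR's test). Against brain, the difference in sciatic nerve had an interval of -0.42 to 0.26 and turned to 0.02 without brain replicate 2.

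The chains could be compared within each library, where scaling between libraries does not enter. The counts of C1qa over C1qb had a mean log2 ratio of -1.14 ± 0.095 in sciatic nerve, -1.24 ± 0.199 in optic nerve and -0.77 ± 0.0997 in brain (SD). Both nerves lay below every brain library, by -0.37 and -0.47 (exact two-sided permutation p = 0.00794 each, adjusted p = 0.017 over 15 ratio tests). For C1qc over C1qb the means were -0.80 ± 0.0569, -0.96 ± 0.0951 and -0.43 ± 0.157, with differences from brain of -0.37 in sciatic nerve (adjusted p = 0.0298 in the exact permutation test) and -0.53 in optic nerve (adjusted p = 0.017 in the exact permutation test). Leaving out any sciatic replicate gave adjusted p = 0.0536 in the exact test for C1qc over C1qb in sciatic nerve against brain. The p of 0.00794 is the smallest that 4 against 5 libraries allow.

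C1qa over C1qc, by contrast, had means of -0.34 ± 0.0497 in sciatic nerve, -0.28 ± 0.12 in optic nerve and -0.34 ± 0.0629 in brain. None of its 3 comparisons passed, with exact permutation p between 0.333 and 0.937 and differences between -0.06 and 0.06. The counts of the B chain were thus high relative to the A and C chains in both nerves, compared with brain, while no difference in the balance of A and C was detectable with these numbers of libraries. Brain replicates 1 and 2 had the lowest C1qa over C1qb and C1qc over C1qb ratios of the 5 brain libraries. Without them the differences in C1qa over C1qb were -0.44 for sciatic nerve and -0.54 for optic nerve (adjusted p = 0.0476 and 0.0779 in the exact permutation test).

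The 3 genes sit side by side on chromosome 4 of GRCm38, all on the minus strand. In the GENCODE M21 annotation C1qb spans chr4:136880129-136886187, C1qc chr4:136889804-136893065 and C1qa chr4:136895917-136898803, with gaps of 3616 bases between C1qb and C1qc and 2851 bases between C1qc and C1qa. Per kb of exon, C1qb had 8283 ± 1051 CPM in sciatic nerve, 13659.9 ± 2478 in optic nerve and 8772 ± 1484 in brain (SD). C1qa had 3922 ± 271, 6005 ± 554 and 5353 ± 637 CPM per kb, and C1qc 2671 ± 235, 3936 ± 618 and 3651 ± 453, in the same order. So C1qc exceeded C1qa in CPM but was below it per kb of exon, its exons being longer (1931 against 1040 bases).

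**Figure D2:**
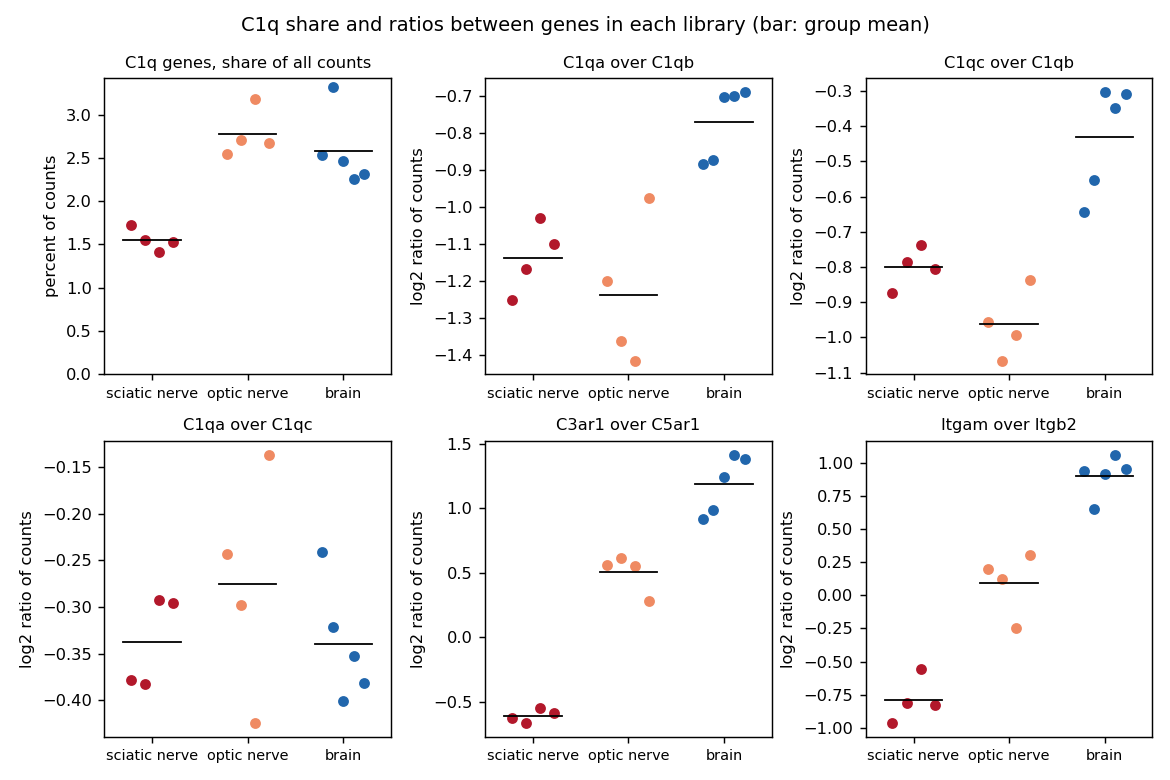
Share of all counts taken by the C1q genes (percent) and log2 ratios of counts between gene pairs in each library, with sciatic nerve, optic nerve and brain from left to right and bars at group means. C1qa and C1qc relative to C1qb lie highest in brain, C1qa over C1qc overlaps in all tissues, and C3ar1 over C5ar1 and Itgam over Itgb2 separate the 3 tissues without overlap.

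The components C4b and C3, and properdin (Cfp) of the alternative pathway, were all higher in both nerves than in brain, but from very different levels. C4b, the fourth component, which is cleaved by the C1 proteases, had 226, 157, 339 and 229 CPM in sciatic nerve, 71.1, 41.6, 62.0 and 131 CPM in optic nerve, and 0.982, 0, 1.45, 1.97 and 3.59 CPM in brain. The tissues did not overlap in any pair. C4b had a log2 fold change of 7.20 (SE 0.70, adjusted p = 7.32e-07 in edgeR's test) for sciatic nerve against brain and 5.56 (SE 0.66, adjusted p = 1.32e-05 in edgeR's test) for optic nerve against brain, and 4.22% and 3.09% of all genes had larger differences in size.

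Between the nerves, C4b differed by 1.64 (SE 0.59), which missed the threshold at adjusted p = 0.0617 in edgeR's test. With only the nerve libraries in the fit the value was 1.61 with adjusted p = 0.00305 in edgeR's test, and without brain replicates 1 and 2 it was 1.63 with adjusted p = 0.00302, and the cause was not tested. C4b has a near-identical neighbour, C4a, with 10, 2 and 0 counts in sciatic nerve, optic nerve and brain, and how reads of the pair were assigned is not stated in any source used here. The C4b levels are to that extent uncertain. In GENCODE M21 on GRCm38, C4b lies at chr17:34728380-34743882 and C3 at chr17:57203970-57228136, both on the minus strand.

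C3, the central component, was scarce in all tissues. It had 6.54, 5.60, 8.93 and 6.20 CPM in sciatic nerve, 23.7, 5.81, 10.4 and 19.8 CPM in optic nerve and 1.44, 0.676, 1.07, 2.08 and 3.67 CPM in brain. Both nerves lay above every brain library, and the nerves overlapped each other. C3 was higher by 1.92 on the log2 scale (SE 0.51, adjusted p = 0.0058 in edgeR's test) in sciatic nerve and by 3.05 (SE 0.52, adjusted p = 0.000391 in edgeR's test) in optic nerve, each against brain. Sciatic against optic nerve gave -1.13 (SE 0.53, adjusted p = 0.151 in edgeR's test). Per kb of exon C3 reached 1.33 ± 0.284 CPM in sciatic nerve, 2.90 ± 1.60 in optic nerve and 0.348 ± 0.228 in brain, far below every C1q chain in the same libraries.

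Cfp, properdin, had the widest range of the 9 genes. It had 1321, 1108, 977 and 1189 CPM in sciatic nerve, 28.1, 14.5, 23.3 and 27.5 CPM in optic nerve and 0.604, 4.13, 1.54, 0 and 1.17 CPM in brain. No tissue overlapped another. Of its 185 brain counts, 116 were in brain replicate 2. In log2 fold change the difference was 9.53 (SE 0.73, adjusted p = 5.25e-08 in edgeR's test) for sciatic nerve against brain, 3.91 (SE 0.60, adjusted p = 0.000154) for optic nerve against brain and 5.62 (SE 0.67, adjusted p = 1.74e-05) for sciatic against optic nerve. Of all genes, 1.59%, 6.06% and 2.97% had larger differences in these comparisons. Cfp lies at chrX:20925454-20931555 on the minus strand of GRCm38.

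Markers of other macrophages and of fibroblasts went with these components only in part. The sums of both marker sets were higher in sciatic than in optic nerve. C3 averaged 6.82 CPM in sciatic nerve and 14.9 CPM in optic nerve, a difference that was not called. The border macrophage sum was 441, 285, 335 and 649 CPM in optic nerve replicates 1 to 4. There C4b, C3 and Cfp were also lowest in replicate 2 and C4b highest in replicate 4. C3 and Cfp were instead highest in optic replicate 1. In sciatic nerve the border macrophage sum was lowest in replicate 1 (12415 CPM) and highest in replicate 3 (15022 CPM). Cfp was highest in sciatic replicate 1 and lowest in sciatic replicate 3. C4b and C3 were both highest in sciatic replicate 3 and lowest in sciatic replicate 2. All 6 border macrophage markers were called higher in sciatic nerve than in brain, in optic nerve than in brain and in sciatic than in optic nerve. A sum of 8 fibroblast markers was 413, 210, 270 and 197 CPM in sciatic nerve, 12.96 to 42.2 CPM in optic nerve and 2.75 to 7.65 CPM in brain, most of it Gsn (mean 210 CPM in sciatic nerve), with Dcn at 32.7, 0.0726 and 0.0285 CPM. Of the 6 fibroblast markers tested, 6, 2 and 5 were called higher in the 3 comparisons, and none lower. Col3a1 and Lum were at 0 in brain. Their part in the C4b, C3 and Cfp results was not tested.

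The peptide receptors were both higher in the nerves, with different steps between tissues. C5ar1, the receptor for C5a, had 3084, 3535, 3310.1 and 3246 CPM in sciatic nerve, 1303, 1317, 1488 and 1297 CPM in optic nerve and 189, 198, 244, 226 and 255 CPM in brain. The 3 tissues formed separate tiers. The log2 fold change was 3.89 (SE 0.13, adjusted p = 1.15e-11 in edgeR's test) for sciatic nerve against brain, 2.60 (SE 0.13, adjusted p = 9.92e-10) for optic nerve against brain and 1.29 (SE 0.13, adjusted p = 4.08e-06) for sciatic against optic nerve.

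C3ar1, the receptor for C3a, had 2005, 2230.5, 2266 and 2168 CPM in sciatic nerve, 1918, 2017, 2186 and 1578 CPM in optic nerve and 357, 392, 577, 602 and 664 CPM in brain. Both nerves lay above every brain library, and the nerves overlapped. Against brain it was higher by 2.06 on the log2 scale in sciatic nerve (SE 0.18, adjusted p = 2.81e-07 in edgeR's test) and by 1.89 in optic nerve (SE 0.18, adjusted p = 1.56e-06 in edgeR's test). The difference of the nerves was 0.17 with an interval of -0.24 to 0.58, and its sign turned (-0.0094) with total-count scaling. C3ar1 lies at chr6:122847138-122856161 and C5ar1 at chr7:16246743-16259540 of GRCm38, both on the minus strand.

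The ratio of the receptors showed the difference directly. The log2 ratio of C3ar1 over C5ar1 counts was -0.60 ± 0.0507 in sciatic nerve, 0.50 ± 0.149 in optic nerve and 1.19 ± 0.227 in brain (SD, n = 4, 4 and 5), so C5ar1 had more counts than C3ar1 in sciatic nerve and fewer in the other tissues. Each pair of tissues was separate. Differences were -1.79 and -0.68 against brain (adjusted p = 0.017 each in the exact permutation test) and -1.11 for sciatic against optic nerve (exact p = 0.0286, the smallest that 4 against 4 libraries allow, adjusted p = 0.0429). Per kb of exon, C5ar1 exceeded C3ar1 in sciatic nerve (1282 ± 72.8 against 503 ± 26.9 CPM per kb) and in optic nerve (526 ± 35.7 against 447 ± 59.6), and was below it in brain (86.6 ± 11.1 against 120.4 ± 31.5).

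Itgam, the alpha chain of complement receptor 3, went the other way. It had 220.2, 204, 291 and 224 CPM in sciatic nerve, 779.7, 787, 716 and 912 CPM in optic nerve and 423, 631, 1194, 1485 and 1278 CPM in brain. Sciatic nerve lay below every other library, and optic nerve fell inside the range of brain. The log2 fold change was -2.09 (SE 0.31, adjusted p = 5.07e-05 in edgeR's test) for sciatic nerve against brain and -1.77 (SE 0.31, adjusted p = 0.000675 in edgeR's test) for sciatic against optic nerve. Optic nerve against brain gave -0.33 (SE 0.29, adjusted p = 0.397 in edgeR's test). Brain replicates 1 and 2, which had low pan-macrophage sums, also had the lowest Itgam, Itgb2, C3ar1 and C5ar1 of the brain libraries. Without these replicates Itgam was called lower in optic nerve than in brain at -0.71 (adjusted p = 0.00116 in edgeR's test). In GENCODE M21, 3450 exon bases of Itgam are shared with Gm49368 on the same strand. Gm49368 has no count of its own here. Itgam lies on the plus strand at chr7:128062640-128118491.

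Itgb2, the beta chain that pairs with Itgam, had 430.4, 358, 428 and 398 CPM in sciatic nerve, 681, 723, 850.1 and 737 CPM in optic nerve and 221, 403, 633, 712 and 659.6 CPM in brain. It was lower in sciatic than in optic nerve (-0.89, SE 0.27, adjusted p = 0.0292 in edgeR's test), a call lost without any 1 sciatic nerve library or optic replicate 2, 3 or 4 (adjusted p = 0.0511 to 0.0806 in edgeR's test). No difference from brain was called for either nerve, although sciatic nerve was called lower (-0.58, adjusted p = 0.00748 in edgeR's test) without brain replicate 1. Itgam relative to Itgb2 therefore separated all tissues, with log2 count ratios of -0.79 ± 0.169 in sciatic nerve, 0.09 ± 0.24 in optic nerve and 0.90 ± 0.154 in brain. The differences were -1.69 and -0.81 against brain and -0.89 between the nerves (adjusted p = 0.017, 0.017 and 0.0429 in the exact permutation test).

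**Figure D3:**
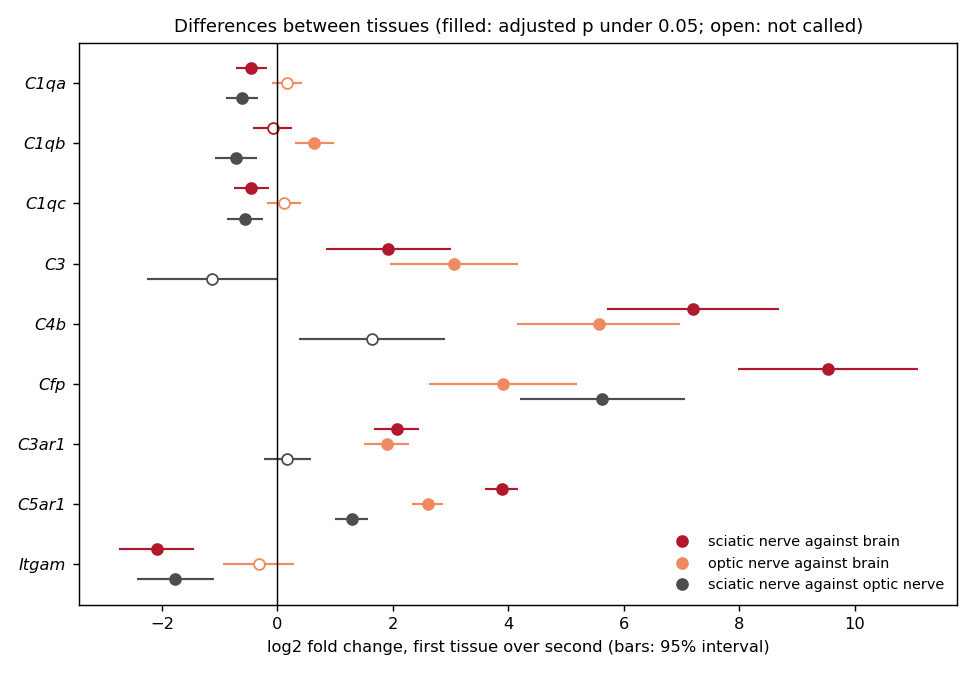
Log2 fold changes of the 9 genes in sciatic nerve against brain, optic nerve against brain and sciatic against optic nerve, with 95% intervals, filled where the adjusted p is under 0.05. The C1q chains lie within 0.72 of 0 in all comparisons, Cfp reaches 9.53 and C4b 7.20, and Itgam falls to -2.09.

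Likeness to other genes was measured as the root mean square difference of log2 CPM over the 13 libraries, after centring each gene, among 13246 genes. The nearest gene to C1qa was C1qc and the nearest to C1qc was C1qa, at 0.077 log2 units, where C1qa on its own varied by 0.28. Pld4 and Mcfd2 came next for both. C1qb was nearest to Taldo1 (0.10), with Rest and Slc25a4 after it, and C1qa and C1qc were its neighbours 81 and 102. This is a description over libraries of 3 tissues, with no p.

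The other genes had neighbours of different kinds. C5ar1 was nearest to Birc3 (0.16), followed by Cd14 (0.23), the lipopolysaccharide co-receptor, and Ccr1 (0.24), a chemokine receptor. C3ar1 was nearest to Naa50 (0.16), Mdm2 and Mat2a, and Itgam to Parvg (0.20), Tspan14 and Il21r. The components with large differences had looser neighbours: Cfp was nearest to Folr2 (0.87), Cd74 and Stap1, C4b to Clic4 (0.72), Bcl3 and Cd44, and C3 to Stk38l (0.60), Gm12966 and Actg-ps1.

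Beyond the 9 genes, 49 other complement genes were listed, of which all were in the table, 22 were tested and 27 were too low to test, 10 of these with no count in any library. Without the sciatic nerve libraries, 6 of the 22 would not have passed the filter: Cfb, Cfd, C6, Cd55, Serping1 and Cd59a, of which Cd59a also needed the optic nerve libraries. Masp1 needed those of brain. The sciatic nerve was higher than brain in 12 of the 22, Cfb, Cfd, C6, Cd55 and Serping1 among them. It was lower in 4, Masp1 among them, and not called in 6. The median log2 fold change was 2.57, beside 24.1% of all tested genes higher and 24.3% lower. Optic nerve against brain gave 10 higher, Cd59a among them, 2 lower and 10 not called (median 1.41), beside 19.6% and 17.4% of all genes. Sciatic against optic nerve gave 8 higher, Cfb, Cfd, C6 and Cd55 among them, 2 lower and 12 not called (median 0.85), beside 10.9% in each direction. Medians were the same with genes absent from a tissue set to the bound given by 3 counts over the group. These counts describe genes that passed the filter, not complement genes as a whole.

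Genes at the start of the classical and lectin pathways were called in both directions. Fcna, ficolin A, had 1864, 1348, 1097 and 1620.3 CPM in sciatic nerve, 101, 47.8, 75.4 and 80.6 CPM in optic nerve and 0, 4.27, 0.373, 0 and 0 CPM in brain (log2 fold change 10.49 and 6.21 against brain and 4.28 between the nerves, adjusted p = 9.86e-07, 9.63e-05 and 0.00204 in edgeR's test). Of its 128 brain counts, 120 were in brain replicate 2, and without that library the log2 fold changes against brain were 13.83 and 9.55. Colec12, a scavenger receptor with a collectin-like lectin domain, had 195, 189, 218 and 233 CPM in sciatic nerve, 9.01, 6.67, 7.98 and 17.8 CPM in optic nerve and no count in brain. It was at least 7870-fold higher in sciatic nerve and at least 391-fold higher in optic nerve than in brain, taking 3 counts over the brain libraries as the floor (0.0265 CPM). Masp1, a lectin pathway protease, passed the filter only with the brain libraries, which favoured a higher level there in advance. It was lower in sciatic nerve than in brain (4 against 189 counts, log2 fold change -4.40, adjusted p = 0.025 in edgeR's test), although brain replicate 1 had no count and the tissues overlapped. That call was lost without sciatic replicate 1, 2 or 3 (adjusted p = 0.0676 to 0.069 in edgeR's test), and the log2 fold change was -7.91 without sciatic replicate 4, which held all 4 counts.

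Of the classical pathway, C1ra, the protease C1r, had 15.8, 9.96, 12.2 and 7.86 CPM in sciatic nerve, 1.56, 1.61, 0.167 and 1.72 CPM in optic nerve and 2.49, 1.246, 2.47, 3.86 and 1.42 CPM in brain. All sciatic nerve libraries lay above the others, with a log2 fold change of 2.31 against brain and 3.17 against optic nerve (adjusted p = 0.00335 and 0.00182 in edgeR's test). C2, the component cleaved with C4, averaged 19.4 ± 2.84 CPM in sciatic nerve (SD, n = 4), 2.97 ± 0.565 CPM in optic nerve (n = 4) and 0.386 ± 0.575 CPM in brain (n = 5), where only replicates 1 and 4 had counts. It was higher in sciatic and optic nerve than in brain (log2 fold change 5.75 and 3.05, adjusted p = 0.000337 and 0.0219 in edgeR's test), or 6.81 and 4.11 without brain replicate 1. Exons of C2 overlap those of Gm20547 and Zbtb12. C1ra and C2 were named after their values were seen. C1rl, a C1r-like protease, was lower in sciatic nerve than in brain (8.91 ± 2.24 against 25.8 ± 6.43 CPM), and in optic nerve as well (12.9 ± 3.72 CPM, adjusted p = 0.00972 in edgeR's test).

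Both alternative pathway proteases passed the filter only with the sciatic nerve libraries and so had to be higher there. Cfb, factor B, had 15.6, 8.23, 15.6 and 17.6 CPM in sciatic nerve, 1.21, 0.484, 0.112 and 0.414 CPM in optic nerve and 3 counts in all over the brain libraries. With counts pooled over libraries, its level in sciatic nerve was 539 times that of brain, with a counting interval of 184 to 2618. That interval leaves out the spread between libraries. In edgeR's fit the log2 fold change was 8.64, with an interval of 6.59 to 10.68. Exons of Cfb overlap those of Gm20547, and how shared reads were counted is not known here. Cfd, factor D, had 3.73, 4.29, 0.936 and 1.47 CPM in sciatic nerve and no count in the other tissues, at least 63.6-fold above optic nerve and at least 98.2-fold above brain.

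Of the membrane attack complex, C6 had 29.3, 19.6, 14.4 and 24.7 CPM in sciatic nerve, 0.0503, 0, 0 and 1.66 CPM in optic nerve and no count in brain. It was at least 830-fold higher in sciatic nerve than in brain, having passed the filter only with the sciatic nerve libraries. Of its 29 optic nerve counts, 28 were in replicate 4, and a log2 fold change of 6.00 in optic nerve against brain (adjusted p = 0.024 in edgeR's test) became 1.88 and lost its call (adjusted p = 0.243) without that library. The other terminal genes were low. Hc, which encodes C5, had 6 counts in sciatic nerve and none elsewhere, C7 had 5, C8a 6 and C9 1 in sciatic nerve alone, and C8b had none, so all 5 went untested. C8g was called in no comparison.

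Receptors outside the 9 genes split. Cd93, a membrane glycoprotein at first described as a C1q receptor, had 156, 278, 288 and 188 CPM in sciatic nerve, 3.47, 1.24, 1.06 and 10.5 CPM in optic nerve and at most 0.466 CPM in brain (log2 fold change 10.75 and 4.94 against brain and 5.81 between the nerves, adjusted p = 9.75e-08, 0.000375 and 2.45e-05 in edgeR's test). Without optic replicate 4 the optic nerve value against brain was 3.89 and that between the nerves 6.87, and without brain replicate 3 the values against brain were 12.14 and 6.33. Vsig4, the complement receptor CRIg of tissue macrophages, had 29.2, 25.8, 34.3 and 41.5 CPM in sciatic nerve, 24.0, 5.92, 3.96 and 28.3 CPM in optic nerve and no count in brain. Its level was at least 1233-fold that of brain in sciatic nerve and at least 586-fold in optic nerve. In the optic nerve, Vsig4, Cd93, Colec12 and C6 were all highest in replicate 4, the library with the highest border macrophage sum, and the part of those cells in the results was not tested. Fcna, Cfb and Serping1 were instead highest in optic replicate 1.

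Other receptors were lower in the nerves or differed between them. C5ar2, the second receptor for C5a, had 15.4, 14.2, 21.9 and 17.1 CPM in sciatic nerve, 20.5, 18.2, 19.5 and 26.2 CPM in optic nerve and 39.0, 54.4, 48.0, 63.0 and 58.6 CPM in brain. It was lower in both nerves than in brain (log2 fold change -1.62 and -1.32, adjusted p = 1.29e-05 and 0.000161 in edgeR's test), in the libraries where C5ar1 was higher. Itgax, the alpha chain of complement receptor 4, had 0.196, 0.0692, 0.144 and 0.999 CPM in sciatic nerve, 36.3, 24.4, 18.2 and 38.2 CPM in optic nerve and 6.65, 2.0998, 3.498, 11.96 and 5.14 CPM in brain. It was lower in sciatic nerve than in brain (-4.02, adjusted p = 0.000239 in edgeR's test) and than in optic nerve (-6.34, adjusted p = 1.81e-05), and higher in optic nerve than in brain (2.32, adjusted p = 0.00474). Without sciatic replicate 4, its highest library there, the first 2 values were -5.37 and -7.67. Both integrin alpha chains of the complement receptors, Itgam and Itgax, were thus lowest in sciatic nerve.

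Among regulators, Cd55, which speeds the decay of C3-splitting enzymes, had 5.88, 6.36, 7.56 and 20.3 CPM in sciatic nerve, 3 counts in all in optic nerve and none in brain, a level at least 378-fold above brain. Serping1, the C1 inhibitor, had 4.25, 7.40, 1.22 and 1.87 CPM in sciatic nerve, 2.06, 0, 0 and 1.18 CPM in optic nerve and no count in brain. Its mean was at least 139-fold above brain in sciatic nerve and at least 30.6-fold in optic nerve. The optic nerve libraries without a count overlapped those of brain, so that mean rests on the others. Cd55 and Serping1 also passed the filter only with the sciatic nerve libraries. Cr1l, C1qbp and Calr, of the receptor group, were called in no comparison. C8g, Cr1l, C1qbp and Calr were named after their values were seen.

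**Figure D4:**
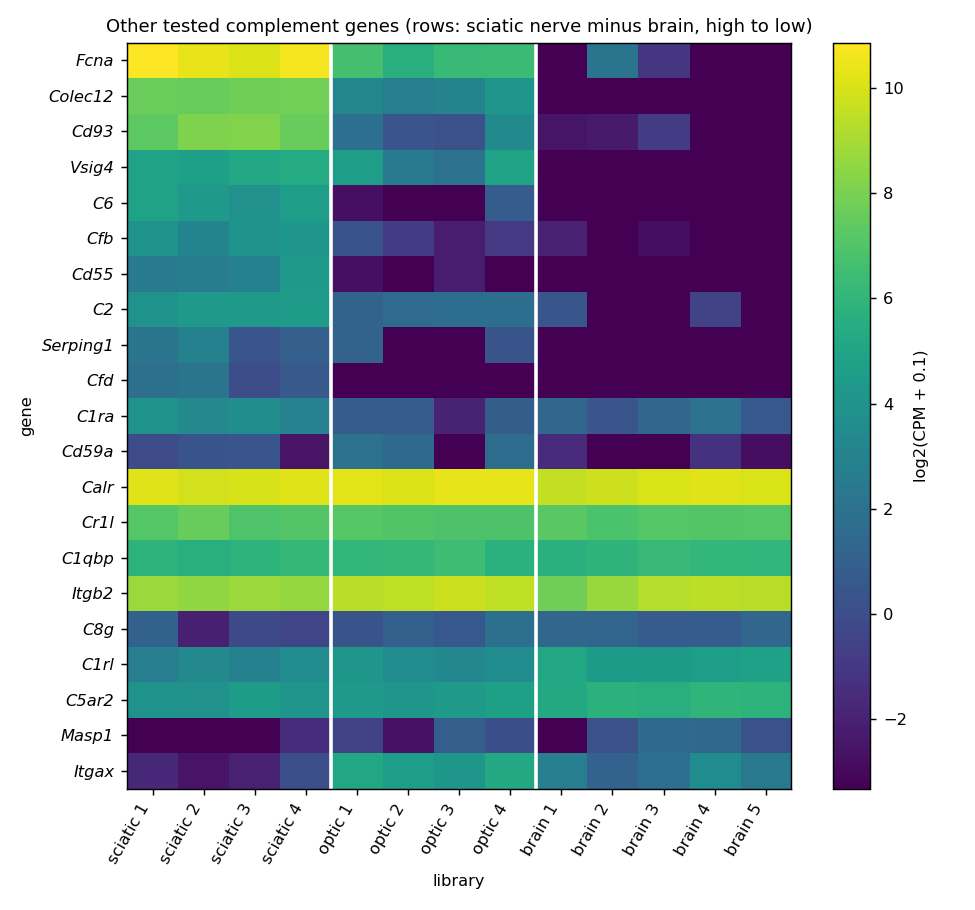
Heat map of log2(CPM + 0.1) for tested complement genes outside the 9, by library, with rows ordered by the difference of sciatic nerve and brain means. Fcna, Colec12, Cd93, Vsig4 and C6 are bright in sciatic nerve and dark in brain, and Itgax and Masp1 at the foot are dark in sciatic nerve.

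Neutrophils and monocytes also carry C5ar1 and Itgam, so their markers were read beside the receptors. Of 8 neutrophil markers, S100a8, Ly6g, Mpo and Elane were at 0 in all libraries, and 7 were under 1 CPM in every tissue. The sum over the 8 was 10.6 to 50.5 CPM in sciatic nerve, 165 to 324 CPM in optic nerve and 178 to 295 CPM in brain, nearly all of it Csf3r. The 6 monocyte markers summed to 385 to 562 CPM in sciatic nerve, 7.03 to 23.3 in optic nerve and 0.712 to 10.2 in brain. Most of the sciatic nerve sum was Ccr2 (458 CPM on average), with Plac8 at 12.1 CPM. The other 4 were under 1 CPM in sciatic nerve: Ly6c2 (0.0692), Vcan (0.552), F10 (0.0509) and Chil3, which was at 0 in both nerves. The part of Ccr2-expressing cells in the sciatic nerve levels was not tested.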

How the data were processed

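The authors deposited raw read counts per gene symbol, with STAR, featureCounts (1.5.1) and mm10 named in the submitters' processing notes. Which STAR version, annotation, strand setting and multimapper rule were used is not stated in any source used here. The number of columns of per-sample values not used is 0. The nerve columns name tissue and replicate, and the 5 others were taken as brain by elimination.

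The counts were fitted with edgeR 4.0.16 in R 4.3.3: filterByExpr by group (13246 of 48587 genes kept), TMM scaling, a single quasi-likelihood fit of all 13 libraries with tissue as factor, and 3 contrasts with Benjamini-Hochberg adjustment over all genes tested. CPM used the TMM-scaled library size. Likeness used log2 CPM with a prior count of 2. Ratios of counts within libraries were compared by exact permutation tests, adjusted over 15. A count of 0 over a group allows up to 0.0512 CPM in sciatic nerve, 0.0409 in optic nerve and 0.0265 in brain (3 counts). Floors and counting intervals (95%, exact) cover counting error only. Exon lengths and positions are from GENCODE M21 on GRCm38. The fit was tested on simulated counts.

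The genes and lists were chosen with earlier results of these data known. Named genes were the 9, Itgb2, up to 5 called genes per direction and comparison with the largest fold change in the wider complement list, and the 3 most alike genes of each of the 9. Alternatives covered scaling, filter, DESeq2 1.42.0, libraries in the fit and leaving out libraries. Microarray and single-cell data of the series were not analysed here, and a few items are not reported here.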

Additional observations from a re-analysis of the deposited data

Results flagged for a closer look

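Values that stood far from the rest of their group were looked for in 80 groups of 4 or 5 libraries, and 10 were found. The groups were the genes named by rule from the complement lists, the log2 ratios of the gene pairs and the C1q share, in each tissue. Groups without spread were left out. Chance alone gives about 1 in 20 for normally distributed values, which counts near 0 are not. Brain replicate 2 had 6714 CPM of C1qa, against 5152 to 5562 CPM in the other brain libraries, and 3.32% of its counts in the C1q genes, against 2.26% to 2.53%. It also had 4.27 CPM of Fcna, against 0 to 0.373 CPM. Brain replicate 3 had 0.466 CPM of Cd93, against 0 to 0.107 CPM.

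Optic nerve replicate 3 had 9386 CPM of C1qc, against 6912 to 7066 CPM in the other optic nerve libraries, and 1488 CPM of C5ar1, against 1297 to 1317 CPM. Optic nerve replicate 4 had 1.66 CPM of C6, against 0 to 0.0503 CPM. Sciatic nerve replicate 4 had 20.3 CPM of Cd55, against 5.88 to 7.56 CPM, 0.999 CPM of Itgax, against 0.0692 to 0.196 CPM, and 0.266 CPM of Masp1, which had no count in the other sciatic libraries.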

How the results depend on the processing

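Of 522 values of log2 fold changes of the 9 genes under alternatives, 504 kept direction and side of the threshold, 10 gained a call, 2 lost it and 6 turned in sign, all 6 in differences that were not called. Total-count scaling turned C1qa (-0.10) and C1qc (-0.16) in optic nerve against brain and C3ar1 in sciatic against optic nerve (-0.0094). C1qb in sciatic nerve against brain became 0.061 without brain replicates 1 and 2, and -0.16 to 0.024 over single libraries left out. C1qc in optic nerve against brain was -0.0054 to 0.18 over these, and the C1qa over C1qc ratio in sciatic nerve against brain -0.013 to 0.027. C4b in sciatic against optic nerve was 1.42 to 2.03, called without optic replicate 4 or brain replicate 1, 2 or 5. The wider list in optic nerve against brain had 7 calls with only those tissues fitted, against 12, and the cause was not tested. Of the 9 genes, the number called was 7 to 8, 6 and 6 to 7 in the 3 comparisons over single libraries left out. Same-numbered nerve libraries correlated at -0.074 to 0.021, so the numbers were not taken as pairs. With the replicate block, sciatic against optic nerve had 2840 calls, against 2892, and C4b 1.68 (adjusted p = 0.00226 in edgeR's test). Leaving out single libraries for the named wider genes was chosen after seeing the data. No paired analysis was possible against brain because its columns could not be tied to labelled replicates. Depth limits C3, C4b and Cfp in brain, at 204, 182 and 185 counts over 5 libraries.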
